A study of Mus musculus with 6 samples.

Results

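Antisense features are genes that the GENCODE M21 annotation of the mouse genome (build mm10) places in the gene type antisense, meaning RNAs without a protein product that run across a gene on the other DNA strand. Of the 46078 features in the deposited count tables, 45106 matched a nuclear gene of that annotation by Ensembl identifier, and 2226 of these (4.94%) were antisense features, 1123 on the plus strand and 1103 on the minus strand. The annotation holds 2959 antisense genes, and those outside the count tables were not analysed here. Counts were summed over 6 libraries, and 1276 of the 2226 antisense features had at least 1 read, 800 had at least 10 reads and 950 had none. After the filter on low counts, 556 were tested.

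The RNA came from mouse heart muscle cells (cardiomyocytes) freed from the heart by ex vivo perfusion. In the Acly-KD group (n = 3) the gene Acly was knocked down using MyH6-Cas9 mice, named for Myh6, a myosin gene of heart muscle cells. The control group (n = 3) carries the genotype label wildtype, and both groups carry the treatment label perfusion. Acly encodes ATP citrate lyase, which makes acetyl-CoA from citrate in the cytosol. The labels name no strain, age, sex or guide, and do not tell if the controls carry Cas9. No label tells if each library is its own animal, and the p-values cover the spread between libraries alone, which may be technical. In bulk RNA, fewer cells of a type and less RNA per cell cannot be told apart.

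Antisense RNAs share sequence, in reverse, with the exons or introns of the gene they cross. Well-studied ones act on that gene: Tsix opposes Xist, the RNA that silences an X chromosome, and Mhrt, from the myosin heavy chain locus of the heart, is known as a heart-protective RNA. Many others are known only as annotated transcripts, and their names (a Gm number, a Rik clone or the opposite gene's name followed by "os") say little of what they do. A library kit that marks strand lets a read be given to a gene or to its antisense partner, provided that the counting uses the matching strand setting.

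The library kit is a stranded one per the labels, but no source used here names the strand setting under which reads were counted. Reads of an antisense RNA and reads of the mRNA opposite therefore cannot be told apart in these gene counts, and each value below is a count placed in an antisense feature. Counts in features came to 271463 to 814765 per library, which is 2.81% to 3.07% of uniquely aligned reads. Acly, the targeted gene, had 0 reads in each of the 3 Acly-KD libraries and 1, 5 and 6 reads in the controls, too few to check the knockdown. Of the 6 libraries 3 stood apart: Acly-KD 1 had the lowest median of protein-coding features with no exon opposite (-1.01, as log2 of CPM + 1 relative to the control mean), and control 2 and control 3 alone had reads opposite to Xist (149 and 137). Ribosomal RNA features took 3.56% of nuclear reads in Acly-KD 1 and 1.08% to 2.84% in the others. No antisense feature of the count tables has Acly as its main opposite gene.

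Nearly all antisense reads fell in features that lie opposite exons, so 9 of the stretches they share with exons are shown. They belong to features among the most abundant, to the named RNAs Mhrt, Hopxos and Anxa11os, and to 2 features with small p-values in the group comparison, Gm13938 and Gm15738. Each is written 5′ to 3′ on the strand of the antisense feature, from GENCODE M21 transcript sequences (mm10). Capitals mark bases opposite a coding exon of the named gene, at most 180 of them, and lower-case letters mark up to 10 bases of the same antisense exon that flank the shared stretch.
A930016O22Rik, opposite Ckm, chr7:19421198-19421383, minus strand: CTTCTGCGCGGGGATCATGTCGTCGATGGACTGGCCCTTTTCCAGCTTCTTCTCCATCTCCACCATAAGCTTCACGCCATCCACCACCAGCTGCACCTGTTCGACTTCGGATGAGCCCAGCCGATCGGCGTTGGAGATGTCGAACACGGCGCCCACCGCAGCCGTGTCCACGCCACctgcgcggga
1700119I11Rik, opposite Ckmt2, chr13:91861743-91861836, plus strand: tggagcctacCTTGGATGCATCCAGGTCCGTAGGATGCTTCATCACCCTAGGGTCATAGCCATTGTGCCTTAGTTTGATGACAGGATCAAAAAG
1700018A23Rik, opposite Ndufa9, chr6:126824926-126825012, plus strand: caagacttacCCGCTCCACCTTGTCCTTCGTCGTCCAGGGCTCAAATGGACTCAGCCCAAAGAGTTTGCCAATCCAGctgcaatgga
Gm15469, opposite Trim54, chr5:31136097-31136286, minus strand: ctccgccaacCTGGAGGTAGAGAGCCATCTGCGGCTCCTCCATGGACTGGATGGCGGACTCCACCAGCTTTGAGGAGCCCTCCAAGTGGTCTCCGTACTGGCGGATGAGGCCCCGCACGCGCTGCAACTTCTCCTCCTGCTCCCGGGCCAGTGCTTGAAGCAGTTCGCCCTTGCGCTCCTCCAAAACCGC
Hopxos, opposite Hopx, chr5:77094856-77095009, plus strand: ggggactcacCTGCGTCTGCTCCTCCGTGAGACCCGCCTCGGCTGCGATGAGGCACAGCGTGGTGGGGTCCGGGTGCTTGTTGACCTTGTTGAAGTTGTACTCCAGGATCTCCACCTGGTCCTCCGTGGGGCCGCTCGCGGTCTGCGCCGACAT
Anxa11os, opposite Anxa11, chr14:25870059-25870191, minus strand: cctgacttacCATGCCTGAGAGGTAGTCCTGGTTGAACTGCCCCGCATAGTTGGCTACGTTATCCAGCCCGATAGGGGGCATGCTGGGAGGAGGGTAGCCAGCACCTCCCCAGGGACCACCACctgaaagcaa
Mhrt, opposite Myh7, chr14:54973878-54974057, plus strand: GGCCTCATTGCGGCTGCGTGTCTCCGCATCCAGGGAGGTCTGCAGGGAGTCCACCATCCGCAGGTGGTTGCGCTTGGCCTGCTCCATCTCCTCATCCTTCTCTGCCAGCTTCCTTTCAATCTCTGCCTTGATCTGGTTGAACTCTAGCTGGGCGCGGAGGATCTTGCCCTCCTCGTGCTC
Gm13938, opposite Ttn, chr2:76780922-76781031, plus strand: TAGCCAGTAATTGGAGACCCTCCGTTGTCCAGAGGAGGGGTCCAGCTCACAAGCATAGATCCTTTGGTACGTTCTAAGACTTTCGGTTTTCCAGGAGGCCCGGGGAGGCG
Gm15738, opposite Mrtfb, chr16:13384184-13384365, minus strand: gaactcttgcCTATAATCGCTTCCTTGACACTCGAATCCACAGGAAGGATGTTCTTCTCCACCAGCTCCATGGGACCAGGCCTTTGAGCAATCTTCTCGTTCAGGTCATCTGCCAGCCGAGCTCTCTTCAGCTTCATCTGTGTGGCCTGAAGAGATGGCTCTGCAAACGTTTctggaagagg
The lower-case letters of these runs often end in ac before the capitals and often begin with ct after them. On the strand of the opposite gene those letters read gt and ag, the usual first and last bases of an intron. Edges were counted where an annotated exon of the opposite gene meets its intron inside an antisense exon. AC stood before the shared stretch at 1019 of 1043 such edges (97.7%) and CT stood after it at 1050 of 1058 (99.2%). Of all positions in antisense transcripts, 5.62% and 7.76% read so. As the edges were taken from the exon models of the opposite gene, these percentages follow from that choice. Stretches that end with the antisense exon itself were not counted. Gm15738 reads gc before its capitals.

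The antisense features took 25.2% of all nuclear reads while making up 4.94% of nuclear features. Per library that part ranged from 24.2% to 26.1%. Features of the type lincRNA (n = 3179), which are long noncoding RNAs between genes, took 8.27%, and protein-coding features (n = 21506) took 51.3%. Per kilobase of exon, antisense features held 189 reads, lincRNA features 43.3 and protein-coding features 13.5, as sums over the 6 libraries. At least 1 exonic base lay opposite an exon of another gene in 59.1% of antisense features, in 14.6% of lincRNA features and in 24.3% of protein-coding features. Within each of these types most reads fell in the features with such an overlap: 99.7% of antisense, 96.1% of lincRNA and 85.7% of protein-coding reads.

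Overlap with exons on the other strand divided the antisense features. The 1265 features opposite an exon of a protein-coding gene held 99.6% of all antisense reads (99.6% to 99.7% per library), and 1004 of them had reads. Another 50 features, opposite exons of noncoding genes only, held 0.0536%. The 727 features that lie inside or across the span of a gene but share no exon base with it held 0.304%, and the 184 with no gene opposite held 0.0265%. Reads were detected in 79.4% of the first class, 42.0% of features opposite noncoding exons only, 30.3% of the features in or across a span and 16.9% of those with no gene opposite. At least 10 reads were counted for 761 of the 1315 features with an opposite exon and for 39 of the 911 without one.

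Most antisense reads were counted in features that overlap the opposite gene mainly in its coding sequence, though where in a feature its reads lie is not known. Each feature was assigned to the part of its opposite gene with which it shares most exonic bases. The 673 features assigned to coding exons (30.2% of the 2226) held 73.8% of reads, with 71.6% to 75.3% per library. The 162 assigned to exon sequence after the coding part held 10.7%, and the 262 assigned to exon sequence before it held 6.26%. Another 218, with 8.96%, were assigned to noncoding exon sequence between the ends of the coding part, or to exons of genes without a coding part. Median reads per feature were 91.5 for sequence after the coding part and 6 for sequence before it. These medians are per feature and not per length.

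**Figure D1:**
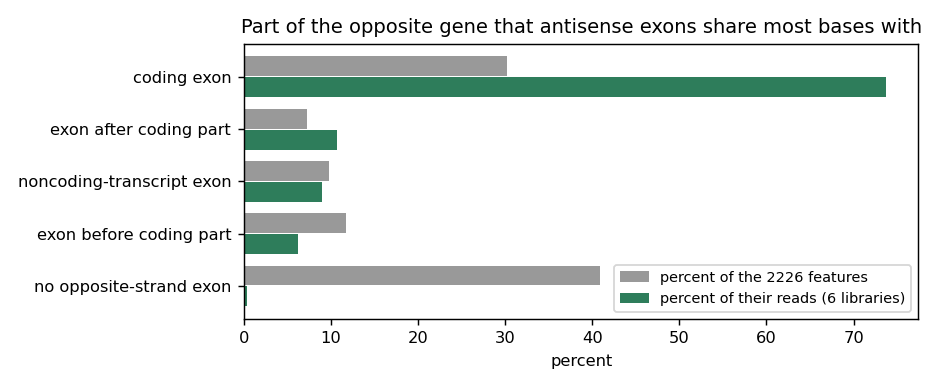
Share of the 2226 antisense features (grey) and of their reads summed over 6 libraries (green), in percent, by the part of the opposite gene that their exons share most bases with. The class labelled noncoding-transcript exon holds noncoding exon sequence between the ends of the coding part, and exons of genes without a coding part. Features assigned to coding exons were 30.2% of features and held 73.8% of reads, whereas the 40.9% of features with no opposite exon held 0.331% of reads.

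Shared bases were summed over all exons of a feature and all genes opposite, so they are not the length of 1 stretch. Among the 1315 features with an opposite exon they had a median of 278 and quartiles of 134 and 515.5. Their range was 2 to 5142 bases, and 55 features lay wholly opposite exons. Across these features Spearman's rho between reads and shared bases was 0.23, and that between reads and all exonic bases was 0.05. Both are descriptions over features that share the same libraries. More than 1 gene lay opposite in 156 cases, and 63 features also share exon bases with a gene on their own strand, where the counting may leave reads out as ambiguous; these 63 held 0.599% of reads.

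Antisense reads were concentrated in few features. A930016O22Rik alone held 14.6% of the 638134 reads, the 3 most abundant held 27.3%, 12 held 43.6%, 100 held 77.0% and 200 held 88.3%. All of the 100 most abundant had an opposite exon, and 99 of them had a protein-coding gene as the main one. In the libraries the 12 most abundant took 39.9% to 46.7% of antisense reads. Their opposite genes include known muscle genes, which are described next with the value in each library in CPM (counts relative to the TMM-scaled library total), in the order Acly-KD 1 to 3 and then control 1 to 3. A CPM value is not per length, so each feature is compared with itself.

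A930016O22Rik lies opposite Ckm, the creatine kinase of muscle, on chromosome 7 (451 of its 2560 exonic bases, mainly coding). Its level was 23800, 23050 and 24320 CPM in Acly-KD and 26480, 27380 and 26210 CPM in control. The 3 Acly-KD libraries were all below the controls, by a log2 fold change of -0.17 (SE 0.11, 95% interval -0.41 to 0.07, edgeR adjusted p = 0.906). Gm15441 lies opposite 606 bases of Txnip, whose product binds thioredoxin and limits glucose uptake. It had 12410, 12010 and 11580 CPM in Acly-KD and 13740, 15250 and 16190 CPM in control. Again the groups did not overlap, with the Acly-KD libraries lower (log2 fold change -0.33, SE 0.12, 95% interval -0.58 to -0.08, edgeR adjusted p = 0.639). Hopxos, opposite Hopx, a small homeodomain protein of the heart, showed the same arrangement. Its values were 1595, 1851 and 1856 CPM in Acly-KD and 2090, 2113 and 2200 CPM in control (log2 fold change -0.27, SE 0.13, edgeR adjusted p = 0.840). None of these passed the test.

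1700119I11Rik lies opposite Ckmt2, the mitochondrial creatine kinase of striated muscle, by only 84 bases. Its values of 9374, 8499 and 8007 CPM in Acly-KD and 9813, 8325 and 7830 CPM in control overlapped throughout (log2 fold change -0.004, 95% interval -0.28 to 0.27). Per kilobase of shared exon its mean level of 102900 CPM exceeded the 55890 CPM of A930016O22Rik and the 33450 CPM of 1700018A23Rik, which shares 67 bases with Ndufa9, a subunit of respiratory complex I. 1700018A23Rik held 2403, 2369 and 2195 CPM in Acly-KD and 2239, 2163 and 2079 CPM in control, a difference of 0.10 on the log2 scale (SE 0.13) with overlapping groups. Over all libraries 1700119I11Rik had 31168 reads and 1700018A23Rik 8180. The runs of capitals printed above for both are all of their bases opposite an exon, and gene counts do not say which bases the reads cover.

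The other 7 features of the 12 also had overlapping groups. Gm15816, opposite 862 bases of the ankyrin gene Ank1, had 5267 ± 413 CPM in Acly-KD and 4718 ± 667 CPM in control (SD, n = 3 each; log2 fold change 0.16). Gm15469, opposite Trim54, a ubiquitin ligase of the sarcomere, had 3481 ± 242 and 3615 ± 375 CPM (-0.06). Gm10138, opposite Ivns1abp, had 2082 ± 213 and 2221 ± 47.3 CPM (-0.09). Gm5577 crosses exons of 3 genes, with 213 bases of the linker histone gene H1fx and 204 of the endosomal GTPase gene Rab7, and its difference was -0.05. Gm15856, opposite the tubulin gene Tuba8, differed by 0.18. The remaining 2, Gm13054 and Mhrt, varied far more among libraries of one group.

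**Figure D2:**
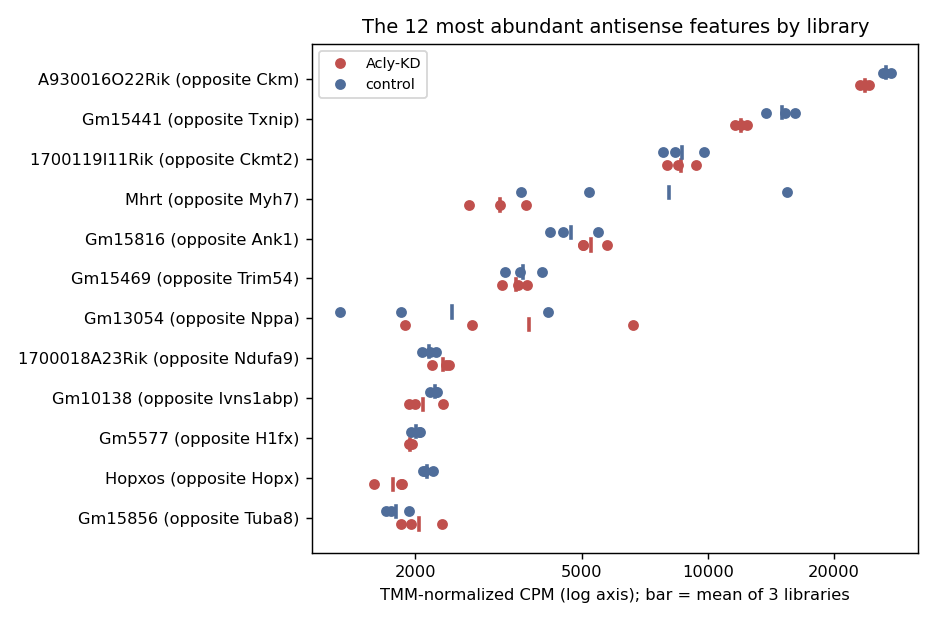
Level of the 12 most abundant antisense features in each library, as TMM-normalized CPM on a log axis, with Acly-KD in red, control in blue and bars at the mean of 3 libraries. The groups do not overlap for A930016O22Rik, Gm15441 and Hopxos, and Mhrt and Gm13054 have the widest spread.

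Mhrt shares 484 of its 1214 exonic bases with Myh7, the slow (beta) myosin heavy chain. Mhrt had 3680, 2686 and 3186 CPM in Acly-KD and 3579, 5211 and 15490 CPM in control. The value of control 3 set its group apart, and the groups overlapped at control 1 (log2 fold change -1.35, SE 0.63, edgeR adjusted p = 0.889). Without control 3 the log2 fold change was -0.46. The count placed in the Myh7 feature was 1074, 1198 and 1953 reads in Acly-KD and 992, 2790 and 2181 reads in control, under the same unknown strand setting. A second feature opposite Myh7, Gm29015, shares 142 bases with it and had 234, 35 and 185 reads in Acly-KD and 56, 155 and 173 in control (log2 fold change 0.11, SE 0.45). The high value of control 3 in Mhrt was not seen in the reads of Gm29015 or of the Myh7 feature.

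Gm13054 lies opposite 532 bases of Nppa, which encodes atrial natriuretic peptide, a hormone of atrial and stressed heart muscle. It had 6617, 1883 and 2734 CPM in Acly-KD and 1318, 4154 and 1848 CPM in control. Acly-KD 1 and control 2 were high, and the groups overlapped (log2 fold change 0.61, 95% interval -1.23 to 2.46, edgeR adjusted p = 0.964). Without Acly-KD 1 the log2 fold change was -0.09. Nppa is also in the list of atrial markers used below.

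Spread among libraries was otherwise modest. Among the 12 most abundant features other than Mhrt and Gm13054, the coefficient of variation was at most 11.9% in Acly-KD and 14.1% in control. Over the 236 antisense features with a mean of at least 100 CPM its median was 15.7% in Acly-KD and 11.8% in control. A value above 50% was seen for Gm13054 and Gm29015 in Acly-KD and for Mhrt and Gm13054 in control.

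More reads were placed in antisense features than in the genes opposite. For 1301 of the 1315 features the main opposite gene is also in the count tables. Over these 1301 pairs the antisense feature had more reads than the gene in 844 (64.9%), with 632607 antisense reads against 67525 reads in the genes, a ratio of 9.37. Keeping the 754 pairs with at least 10 antisense reads gave 692 (91.8%), and the 50 most abundant gave all 50, but both choices were made on antisense reads and favour the antisense side. Ckm, among the most abundant mRNAs of striated muscle, had 1174 reads placed in its feature, and A930016O22Rik had 79.3 times as many. Txnip had 119 reads (ratio 422), Ckmt2 299 (ratio 104), Nppa 82 and Ndufa9 37. Mhrt and Gm13938 had ratios near 2, with 10188 reads in Myh7 and 1820 in Ttn.

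**Figure D3:**
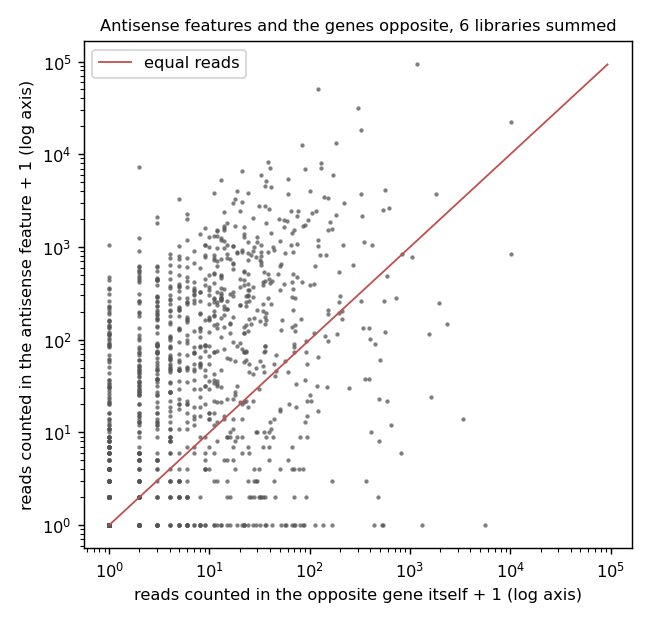
Reads in each antisense feature against reads in its main opposite gene, both summed over 6 libraries with 1 added and on log axes; each point is 1 of 1301 features and the red line marks equal reads. Antisense features were higher in 844 of the 1301 pairs, and all 50 of the most abundant lie above the line.

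Antisense features without an opposite exon held few reads. All 911 together held 2110 reads over 6 libraries (174 to 498 per library), the highest single feature had 388 reads, and 6 were tested. Gm31305, within the span of the myomegalin gene Pde4dip, had 92.1, 110 and 149 CPM in Acly-KD and 98.3, 88.7 and 89.2 CPM in control (log2 fold change 0.36, SE 0.25). Pde4dip itself had 1096 reads, more than the 388 of Gm31305. Gm16299 lies within the span of Rbm20, the splicing factor that sets titin isoforms. It had 13.8, 53.7 and 22.5 CPM in Acly-KD and 80.1, 86.4 and 47.5 CPM in control, with the groups overlapping at Acly-KD 2 and control 3 (log2 fold change -1.32, SE 0.45, edgeR adjusted p = 0.579). Gm4117 (Xrcc4), Gm16185 (Slc25a36) and Gm15949 (Limch1) differed by -0.09, 0.17 and 0.52 on the log2 scale, with SEs of 0.34, 0.43 and 0.55.

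The antisense share of nuclear reads was 24.9% ± 0.966 in Acly-KD and 25.2% ± 0.816 in control (SD, n = 3 each), a difference of -0.31 percentage points (exact permutation test, two-sided, p = 0.5). Of antisense reads, 99.7% ± 0.0507 and 99.7% ± 0.0442 fell in features with an opposite exon (difference -0.0098 points, exact permutation test, two-sided, p = 0.8). With 3 libraries against 3 the smallest p that this test can give is 0.1. These differences were smaller than the spread between libraries of 1 group, but their size moved with the definition. Over all gene counts, mitochondrial ones included, the antisense share was 16.1% ± 1.37 and 17.5% ± 0.600 (difference -1.35 points, exact permutation p = 0.3). With at least 50 shared bases asked for, the opposite-exon share was 98.2% ± 0.0808 and 98.35% ± 0.0925, a difference of -0.17 points that exceeds both SDs (exact permutation p = 0.2).

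Across single features, no antisense feature passed the test at an adjusted p of 0.05 in edgeR's quasi-likelihood fit over 2952 features (percent of all tested features called: 0.0%). The smallest adjusted p of an antisense feature was 0.457. At an unadjusted p under 0.05, 24 of the 556 (4.32%) were higher in Acly-KD, where 2.57% of all tested features were, and 23 (4.14%) were lower, where 3.52% of all were. DESeq2, run without the filter on low counts over 15283 features, also called 0. Of its antisense features, 34 of 1276 (2.67%) had an unadjusted p under 0.05, where 0.962% of all its features did. The filter on low counts keeps 556 of these 1276 and 2952 of the 15283, so these percentages have unlike bases. The 3 Acly-KD libraries all lay above the 3 controls for 45 antisense features (8.09%), where 5.83% of all tested features did, and all below for 40 (7.19%), where 5.56% of all did. The antisense percentages were above those of all tested features in the 4 edgeR counts given by direction. The SE was smaller (median 0.30, compared with 0.39 over all features). The difference between the percentages was not tested, and its sign depended on the fit. For unadjusted p under 0.05 in either direction, limma-voom gave 10.79% of antisense features and 10.98% of all. Without Acly-KD 3 these were 14.57% and 17.88%. In the other fits with more than 1 library per group the antisense percentage was the higher. Calls depended on 1 library. Without Acly-KD 3, 7 of 556 antisense features passed, where 69 of all 2998 features did. Of these antisense features, Sorbs2os, Gm13938, Gm15738, Gm20659, Gm16897 and Gm38287 were higher and Gm16272 lower. Without control 1, 1 of 592 antisense features passed (Tsix, lower in Acly-KD), where 2 of all 3266 features did.

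Fold changes of antisense features lay close to 0. The median log2 fold change over the 556 was 0.05, 5% were below -0.57 and 5% above 0.62, and the median SE was 0.30. Of the 556, 305 were above 0 and 251 below. That split moved with the scaling: 54.9% were above 0 with TMM, 65.7% in DESeq2 and 43.4% with uniquely aligned reads as library size, so no direction is given for the antisense features as a group. Over all 2952 features the median was -0.04. Protein-coding features with an opposite exon had a median of -0.004 (n = 1283), and those without one had -0.31 (n = 659). Library by library, relative to the control mean, the median of the latter was -1.01 in Acly-KD 1 and -0.36 in Acly-KD 2 but 0.23 in Acly-KD 3, whereas the median of antisense features stayed between -0.04 and 0.13 in every library.

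**Figure D4:**
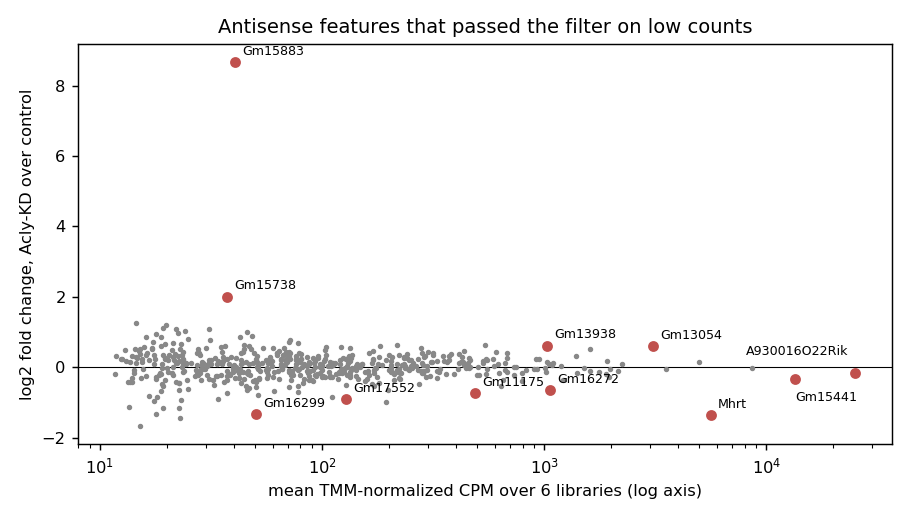
Log2 fold change of Acly-KD over control against the mean CPM of each of the 556 tested antisense features, with features named in the text in red. No feature passed an adjusted p of 0.05; Gm15883, at the top, has 0 reads in every control library, so its fitted value is no measured fold.

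The 5 tested features with the smallest p among those higher in Acly-KD did not pass the test. Gm15738 lies opposite 162 bases of Mrtfb, an actin-responsive partner of serum response factor. It had 63, 12 and 41 reads (96.7, 29.3 and 51.3 CPM) in Acly-KD and 6, 13 and 7 reads (21.9, 15.4 and 10.1 CPM) in control. The groups did not overlap, and Acly-KD 1 was highest (log2 fold change 2.01, SE 0.49, 95% interval 0.96 to 3.06, edgeR adjusted p = 0.457). Its adjusted p was 0.034 without a filter on low counts and 0.025 without Acly-KD 3, and 0.11 to 1.00 under the other alternatives. Gm13938 has 453 of its 493 exonic bases opposite Ttn, the giant spring protein of the sarcomere. It had 1356, 1453 and 951 CPM in Acly-KD and 696, 831 and 913 CPM in control. All Acly-KD libraries were above the controls, with Acly-KD 3 close to control 3 (log2 fold change 0.62, SE 0.17, edgeR adjusted p = 0.457).

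Gm15419, opposite 43 bases of the basement membrane collagen gene Col4a2, had 263 ± 63.3 CPM in Acly-KD and 172 ± 15.4 in control (log2 fold change 0.63). Gm16192, opposite Mtus1, a microtubule-binding protein, had 221 ± 26.9 and 144 ± 20.9 CPM (0.59). Gm11651, opposite the angiotensin-converting enzyme gene Ace, had 329 ± 30.4 and 227 ± 53.0 CPM (0.56). In each of these the groups did not overlap, and the edgeR adjusted p was 0.579. Sorbs2os, opposite 1051 bases of Sorbs2, an adaptor protein of the Z-disc, had 834, 630 and 510 CPM in Acly-KD and 448, 318 and 512 CPM in control. Its groups overlapped at Acly-KD 3 and control 3 (log2 fold change 0.63, edgeR adjusted p = 0.579).

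Among features lower in Acly-KD, the 5 smallest p-values belonged to Gm11175, Gm17552, Gm11508, Gm7008 and Gm16272, again with no call. Gm11175 lies with all of its 877 exonic bases opposite Jund, a subunit of the AP-1 transcription factor. It had 462, 340 and 315 CPM in Acly-KD and 488, 669 and 672 CPM in control, so the groups did not overlap though Acly-KD 1 came close to control 1 (log2 fold change -0.72, SE 0.19, edgeR adjusted p = 0.457). Gm16272 shares 156 bases with Ndufb2, a subunit of respiratory complex I, and had 676, 686 and 1131 CPM in Acly-KD and 1271, 1410 and 1196 CPM in control. Acly-KD 3 lay next to the controls (log2 fold change -0.63, edgeR adjusted p = 0.549). Without Acly-KD 3 the log2 fold change was -0.87, with an adjusted p of 0.0078.

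The other 3 were less abundant. Gm17552, opposite the carnosine synthase gene Carns1, had 89.6 ± 24.8 CPM in Acly-KD and 167 ± 26.1 in control (log2 fold change -0.91). Gm11508, opposite 98 bases of the splicing factor gene Srsf1, had 79.0 ± 13.4 and 143 ± 16.1 CPM (-0.84). Gm7008, opposite Ifrd1, had 134 ± 57.5 and 254 ± 48.4 CPM (-0.97). No library of 1 group reached into the other for these 3.

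**Figure D5:**
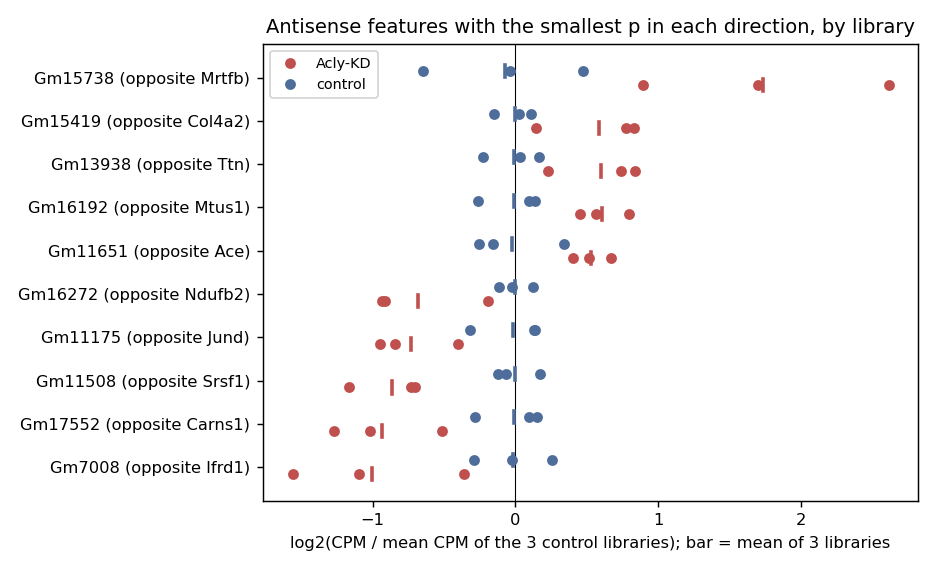
In each direction the 5 antisense features of smallest p, as log2 of each library's CPM over the mean of the 3 control libraries (Acly-KD red, control blue, bars at the mean of 3 libraries). In all 10 the groups do not overlap, and none passed the adjusted test; the features were chosen by their p in this comparison.

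Gm15883 was singled out after its values were seen, as the one tested antisense feature with a group at 0. It shares 274 bases with Cyp2f2, a cytochrome P450 best known from the lung, and had 137, 7 and 13 reads in Acly-KD and 0 in each control. It therefore passed the filter on low counts through the Acly-KD libraries alone. Against a floor of 3 counts over the control group the pooled level in Acly-KD was at least 51.1-fold higher, but Acly-KD 1 held 87.3% of its reads. Acly-KD 2 and Acly-KD 3 had 17.1 and 16.3 CPM, where 0 reads in control 1 allow up to 10.9 CPM. The fold bound thus rests mainly on Acly-KD 1, and Gm15883 did not pass the test (edgeR adjusted p = 0.873). With this feature at its bound, the median of the 556 was still 0.05.

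Tsix, the antisense RNA of Xist, shares 1980 exonic bases with it. It had 0 reads in each Acly-KD library and in control 1, and 129 and 124 reads in control 2 and control 3. A count of 0 allows up to 3.75 to 10.9 CPM in these 4 libraries, and control 2 and control 3 had 153 and 178 CPM. The split thus ran within the control group, and Tsix did not pass the filter for testing. Sex is not in the labels. A term added for these 2 control libraries leaves a comparison of Acly-KD with control 1 alone, so only fold changes are given for that fit. Its median log2 fold change over the antisense features was 0.11, compared with 0.05 without the term. In the fit without the term, 47 antisense features (8.45%) had an unadjusted edgeR p under 0.05, where 6.10% of all features did.

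The antisense features were also grouped by their opposite genes, over 273 genes in 8 lists chosen with earlier results of these data known. By exon, 35 features lie opposite a listed gene, these held 37.1% of antisense reads, 25 were tested and none passed. Opposite genes of glucose, glycogen and creatine metabolism there were 4 features with 22.5% of antisense reads, most of it in A930016O22Rik and Gm15441. All 3 tested were below 0 (median -0.30, compared with -0.04 over all features). Of these, 2 had all Acly-KD libraries below the controls, as 5.56% of all tested features did. 1700119I11Rik, opposite the creatine kinase gene Ckmt2 and at -0.004, was placed in the mitochondrial list instead. Their summed share was 20.01%, 21.04% and 22.54% of antisense reads in Acly-KD and 23.99%, 24.43% and 22.66% in control, so Acly-KD 3 came close to control 3. The other one tested was Gm12868, opposite the glucose transporter gene Slc2a1 (-0.30, SE 0.37), and Hk1os had 6 reads.

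Opposite the 40 genes of the mitochondrial list there were 3 features with 5.97% of antisense reads; that list lacks Ndufa9 and Ndufb2, so 1700018A23Rik and Gm16272 are not among them. Besides 1700119I11Rik they were D430001F17Rik and Gm15976, both opposite Atp5o, a subunit of ATP synthase. D430001F17Rik had 1916, 1893 and 1534 CPM in Acly-KD and 2003, 1882 and 2199 CPM in control, overlapping groups with a log2 fold change of -0.19 (SE 0.14). Gm15976 had 12 reads and was not tested. The 6 features opposite sarcomere and Z-disc genes held 5.17% of antisense reads, and of the 5 tested 3 were above 0 and 2 below (median 0.11). Beyond Mhrt, Gm29015 and Gm13938, the most abundant was Gm13601 opposite Xirp2, an actin-binding protein of the intercalated disc. It had 2691, 1580 and 1385 CPM in Acly-KD and 1052, 1258 and 1649 CPM in control, high in Acly-KD 1 and otherwise overlapping (log2 fold change 0.51, SE 0.27, edgeR adjusted p = 0.897).

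Opposite genes of lipid, ketone body and acetyl-CoA metabolism all 3 features were tested and were above 0 (median 0.11), with 0.491% of antisense reads. Gm15743, opposite the ketone body enzyme gene Bdh1, differed by 0.05 (SE 0.17). Acss2os, opposite Acss2, which makes acetyl-CoA from acetate, differed by 0.11 (SE 0.21). Gm26850 lies opposite 1136 bases of Slc33a1, the acetyl-CoA transporter of the endoplasmic reticulum, and had 86.0, 83.0 and 102.5 CPM in Acly-KD and 47.3, 43.8 and 67.6 CPM in control. Its groups did not overlap and it did not pass the test (log2 fold change 0.77, SE 0.29, edgeR adjusted p = 0.659).

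Opposite transcription factor, cell cycle and stress genes 10 features held 2.85% of antisense reads, and of the 9 tested 4 were above 0 and 5 below (median -0.08). Among them Gm15738, Gm11651, Gm11175 and Uchl1os had an unadjusted edgeR p under 0.05, which is 4 of 9, where 6.10% of all tested features did. The first 2 were higher in Acly-KD and the last 2 lower. As the list was chosen with earlier results of these data known, 4 of 9 cannot be read as a result about the list. Uchl1os, opposite the neuronal deubiquitinase gene Uchl1 and named here after its values were seen, had 8, 3 and 13 reads in Acly-KD and 9, 26 and 27 in control. 1700113A16Rik, opposite the muscle transcription factor gene Mef2d, differed by -0.08 (SE 0.17). Opposite chromatin genes 5 features held 0.0961% of reads, with Kdm6bos (opposite the histone demethylase gene Kdm6b) at 0.13 and Gm14573 (opposite the deacetylase gene Hdac11) at -0.06, and Dnmt3aos had 1 read. Opposite calcium cycling genes Gm17224, against the calsequestrin gene Casq1, was the one tested (-0.35, SE 0.74). Gm15551, within the span of Camk2d, had 1 read.

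The features of known imprinted antisense RNAs differed in the number of reads placed in them, which is not per length. Kcnq1ot1, the antisense RNA of the Kcnq1 locus, was singled out after its values were seen and had 88, 53 and 129 reads in Acly-KD and 37, 100 and 122 in control. Its groups overlapped, at 142 ± 17.0 and 143 ± 29.4 CPM (log2 fold change -0.006, SE 0.22). It has 93092 exonic bases, of which 1119 lie opposite exons, 121 of them of Kcnq1. Nespas and Airn each had 2 reads over all libraries.

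The naming rule also took abundant features with a name that is neither a Gm number nor a clone, and besides Mhrt, Hopxos and Sorbs2os these were 9, none of which passed the test. Slfn5os had 1086 ± 245 CPM in Acly-KD and 974 ± 68.2 in control (log2 fold change 0.15). Rab10os (0.21), Myadml2os (0.07) and Etohd2, opposite the RNA uridylyltransferase gene Tut7 (0.05), were above 0. Tomm6os, mainly opposite Prickle4 (-0.14), Anxa11os (-0.31), Brip1os, mainly opposite the Mediator gene Med13 (-0.05), and Prss23os (-0.13) were below it. All of these had overlapping groups. Ube4bos1 had 238, 225 and 220 CPM in Acly-KD and 175, 169 and 213 CPM in control, with no overlap (0.29, SE 0.19, edgeR adjusted p = 0.906).

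Where more than 1 antisense feature lies opposite the same gene, the features share a target and are not independent. There were 49 such genes, and 15 had at least 2 tested features (30 in all). The fold changes had the same sign in 12 of the 15, with a median difference of 0.21 and a largest one of 1.46, that of Mhrt and Gm29015. Opposite Atp11a, a phospholipid flippase, Gm15347 had 0.27 (SE 0.18) and Gm15350 had 0.44 (SE 0.18). Opposite Mtus1, B430010I23Rik had 0.29 and Gm16192 had 0.59.

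Cell type markers were described by the reads placed in the marker features and in the antisense features opposite them. All 10 cardiac muscle markers had reads, with summed levels of 4256 to 15450 CPM in Acly-KD and 11360 to 14500 CPM in control; Gm13938, opposite Ttn, is the one antisense feature against them. Of the 6 atrial markers Sln and Bmp10 were at 0, and the summed level was 36.9 to 63.5 CPM in Acly-KD and 70.5 to 80.1 in control. Gm13054 opposite Nppa ranged from 1883 to 6617 CPM in Acly-KD and from 1318 to 4154 CPM in control. No antisense feature lies opposite the 8 endothelial or the 8 macrophage markers. No endothelial marker was at 0 (summed level 24.6 to 92.5 CPM in Acly-KD, 37.4 to 65.1 in control). Of the macrophage markers Adgre1 and Ptprc were at 0, and the list summed to 107.5 to 121.3 CPM in Acly-KD and 98.3 to 153.9 in control. Fibroblast markers summed to 16.9 to 26.9 and 12.9 to 27.2 CPM, and pericyte and smooth muscle markers to 64.5 to 165 and 113 to 152 CPM. Gm42802, opposite the fibroblast marker Pdgfra, had 3 reads. Gm17276, opposite the pericyte marker Notch3, ranged from 105 to 121 CPM in Acly-KD and from 69.2 to 112 CPM in control. Of the neuron and glia markers 5 of 6 were at 0 and none has an antisense feature opposite. The part of other cell types in the antisense values was not tested.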

How the data were processed

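The members and the lists of opposite genes were chosen with earlier results of these data known. Poly-A RNA was sequenced as paired ends from stranded libraries, per the labels' protocols. The deposited values are whole-number counts per gene made by the authors, with no normalization. Per the submitters' processing notes the tools were HTSeq, TopHat2, SAMtools, FastQC and DESeq2 (no versions) and the build was mm10. Strand setting and annotation release of the counting: not given in the sources used here. Entries that name no gene, 97.4% to 97.7% of all entries per library, were left out. No column of other samples was present (0).

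Features were matched by Ensembl identifier, without version, to GENCODE M21, and shared exonic bases (at least 1) were counted against exons on the other strand. "Reads" are the deposited counts. Counts of all features that passed filterByExpr (minimum count 10) were tested in edgeR 4.0.16 (R 4.3.3) with TMM and robust quasi-likelihood fits, with Benjamini-Hochberg adjustment over all 2952 features at 0.05. Intervals are 95%. Shares were compared with exact permutation tests over libraries. DESeq2 1.42.0 and limma 3.58.1 were alternatives. The main edgeR fit was checked on simulated counts with known changes, and its power is not given here. The libraries of a group differed by more than counting error alone would give (chi-square per degree of freedom 3.43 to 10.1). That check cannot tell separate animals from separate libraries made of the same RNA.

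Features were named by rule: the 12 most abundant; any called; the 5 with the smallest p per direction; up to 3 per list; the 5 most abundant with no opposite exon; and up to 12 with a name that is neither a Gm number nor a clone. Features called only without 1 library, those sharing an opposite gene, marker partners, Hk1os, Kcnq1ot1, Gm15883 and Uchl1os fall outside it and were picked with their values in view.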

Additional observations from a re-analysis of the deposited data

How the results depend on the processing

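The count of antisense features called, 0, stayed at 0 under every alternative except a fit with no filter on low counts and leaving out a library. With no filter 1 of 1276 was called (Gm15738), where 3 of all 15283 features were. Leaving out a library gave 0 to 7, with 7 of 556 called without Acly-KD 3, where 69 of all 2998 features were. The fit with a term for reads opposite to Xist is not counted here, as it leaves control 1 as the only control. In the fit with a replicate block 0 were called. The shared numbers gave no sign of pairing (correlations of same-numbered deviations -0.07, -0.02 and -0.19, and 0 of 3 Acly-KD libraries closest to its own number). With 3 libraries per group this cannot settle if the samples were paired. With the block 41 features (7.37%, 5.12% of all features) had an unadjusted edgeR p under 0.05, compared with 47 (8.45%, 6.10% of all) without it. The differences in share with the replicate block were again -0.31 and -0.0098 points, where 3 sign flips allow no p below 0.25. The difference in the nuclear share became -1.35 points over all gene counts, -0.065 without the largest feature and 0.86 points when all noncoding types opposite protein-coding exons were counted, and ran from -0.86 to 0.14 with a library left out. That in the opposite-exon share became -0.17 points with at least 50 shared bases, -0.0064 without the largest feature and 0.047 for protein-coding exons alone, and ran from -0.038 to 0.013.

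Of the 49 named and tested features, 29 kept their sign under every alternative run. The other 20 had small or imprecise fold changes, and the cause was not tested. On the log2 scale, DESeq2 gave 0.0087 for 1700113A16Rik, 0.092 for 1700119I11Rik, 0.046 for Brip1os, 0.037 for Gm14573, 0.034 for Gm15469, 0.03995 for Gm5577 and 0.073 for Kcnq1ot1. With no filter on low counts the same features had 0.021, 0.11, 0.0600, 0.041, 0.043, 0.048 and 0.074. For 1700119I11Rik, DESeq2 size factors gave 0.035, limma-voom 0.0082, a minimum count of 20 gave 0.0056 and nuclear features alone 0.039. For Kcnq1ot1, DESeq2 size factors gave 0.031, a minimum count of 20 gave 0.015 and nuclear features alone 0.033. Limma-voom gave 0.027 for Brip1os, 0.012 for Gm4117 and 0.014 for Prss23os. Library totals gave -0.029 for Etohd2 and -0.012 for Gm15743. Of alternatives chosen after seeing the data, uniquely aligned reads as library size gave -0.0027 for 1700018A23Rik, -0.076 for Etohd2, -0.046 for Gm15743, -0.00063 for Kdm6bos and -0.025 for Myadml2os. A term for libraries with reads opposite to Xist, also chosen after seeing the data, leaves control 1 as the only control. It gave 0.71 for Gm12868, 0.082 for Gm14573, 0.0904 for Gm15469, -0.12 for Gm16185, 0.082 for Kcnq1ot1 and -0.22 for Kdm6bos. With a library left out, the values ran from -0.16 to 0.065 for 1700113A16Rik, from -0.067 to 0.15 for 1700119I11Rik, from -0.0077 to 0.33 for Acss2os, from -0.14 to 0.18 for Brip1os, from -0.19 to 0.34 for Etohd2, from -0.58 to 0.091 for Gm12868, from -0.085 to 1.30 for Gm13054, from -0.18 to 0.18 for Gm14573, from -0.099 to 0.031 for Gm15469, from -0.039 to 0.21 for Gm15743, from -0.17 to 0.49 for Gm16185, from -1.62 to 0.13 for Gm17224, from -0.19 to 0.12 for Gm4117, from -0.042 to 0.014 for Gm5577, from -0.11 to 0.19 for Kcnq1ot1, from -0.093 to 0.42 for Kdm6bos, from -0.018 to 0.24 for Myadml2os, from -0.29 to 0.043 for Prss23os and from -0.022 to 0.37 for Slfn5os. Control 1 was the shallowest library, with the widest counting error for features of few reads.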
